A study of Mus musculus with 8 samples.

Results

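Loss of Foxd1 in the early mouse hypothalamus was measured by RNA sequencing at embryonic days E12.0 and E12.5. These comparisons use 4 of the 8 libraries of the series, 1 wild-type and 1 Foxd1-mutant library of hypothalamic tissue at each stage, and the mutant was set against the wild type within a stage. The other 4 libraries are wild-type and mutant hypothalamus at E17.5, with 2 per genotype. Each library was made from RNA pooled over embryos, 8 Foxd1-null and 10 control embryos in all, and how these were divided over the libraries is not given in the sources used here. The genotype of each library comes from its source name, because the account of the harvest describes the controls in words that could cover either genotype. The allele and the part of Foxd1 that it removes are not given in the sources used here. The account of the dissection names E12.5 and E17.5 alone, so whether E12.0 was a collection of its own is not settled.

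Levels are the authors' FPKM (fragments per kilobase of transcript and per mapped library size), with rows of the same gene symbol summed. Of 23440 symbols, the 11952 with a mean of 1 FPKM or more over the 4 libraries were tested. Differences are mutant minus wild type on the log2(FPKM + 1) scale, where 1 unit is 2-fold for a well expressed gene and understates the change of a low one. With 1 library per genotype at a stage, a difference at a single stage has no replicate check, and the only test was limma over both stages with stage as a block, which leaves 1 residual degree of freedom. The spread behind its p-values comes from the disagreement between the 2 stage differences, so it also holds any change of the genotype difference from E12.0 to E12.5. That the 2 stages are separate embryos is an inference from the labels, so this spread may be partly technical. Below, a pair of FPKM values gives the wild type first and the mutant second, and the E12.0 pair comes before the E12.5 pair.

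Foxd1 encodes a forkhead transcription factor of the ventral diencephalon and developing hypothalamus. At this age the hypothalamic neuroepithelium is divided by homeobox and other regulators into preoptic, anterior, tuberal and mammillary territories, and progenitors leave the cycle to form the first peptide neurons. The neighbouring telencephalon, prethalamus and thalamus carry their own regulators, so a dissection can be read for their presence.

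Apart from Foxd1, the genes that were 2-fold different in the same direction at both stages were the histone gene Hist1h2ba, Lars2 and 8 small RNAs. The promoters of 2 histone H2B genes of the Hist1 cluster on chromosome 13 are shown because their transcripts differed in opposite directions, Hist1h2ba (higher in the mutant) and Hist1h2bf (lower). Sequences are from RefSeq (GRCm38.p6), 250 bases before to 50 bases after the gene's start, 5′ to 3′ on the gene's strand. Capitals mark matches on either strand to the octamer ATTTGCAT, the TATA box TATAAA and the CCAAT box CCAAT, none of which share bases in these windows.
Hist1h2ba, chr13:23934107-23934406, minus strand: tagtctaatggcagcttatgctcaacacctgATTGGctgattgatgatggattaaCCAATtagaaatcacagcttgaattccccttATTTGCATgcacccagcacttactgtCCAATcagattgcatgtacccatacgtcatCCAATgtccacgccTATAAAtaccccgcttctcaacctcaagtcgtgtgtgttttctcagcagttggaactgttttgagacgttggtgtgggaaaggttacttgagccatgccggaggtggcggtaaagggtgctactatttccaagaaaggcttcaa
Hist1h2bf, chr13:23574158-23574457, minus strand: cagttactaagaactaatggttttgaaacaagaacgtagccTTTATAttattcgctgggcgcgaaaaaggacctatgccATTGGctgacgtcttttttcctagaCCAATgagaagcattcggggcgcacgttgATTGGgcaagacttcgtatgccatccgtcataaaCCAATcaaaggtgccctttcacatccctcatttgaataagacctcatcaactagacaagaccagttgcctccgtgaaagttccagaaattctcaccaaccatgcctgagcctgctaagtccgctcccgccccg
The Hist1h2ba window held 1 octamer, 1 TATA box and 4 CCAAT boxes. The Hist1h2bf window held no octamer, 4 CCAAT boxes and 1 match to the TATA box letters, on the opposite strand and far upstream of the start. All are matches of letters, and whether they act as promoter elements was not tested. The annotated start of Hist1h2ba falls on its first atg codon and that of Hist1h2bf before it, so positions in the windows are not aligned. Among 32851 RefSeq promoter windows of this length, 1.74% held the octamer, 13.6% the TATA box and 37.4% the CCAAT box. Among the 49 windows of Hist1 cluster genes, the octamer was in 10, the TATA box in 31 and the CCAAT box in 41. The mature small nucleolar RNA Snord34, 70 nt in the GENCODE annotation (M21), is shown with its C box and D box, the motifs that define its class, in capitals.
Snord34: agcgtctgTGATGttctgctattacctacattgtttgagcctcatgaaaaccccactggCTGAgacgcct

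Foxd1 itself stood at 24.95 FPKM in the wild-type library and 2.77 FPKM in the mutant library at E12.0. At E12.5 it stood at 30.3 FPKM in the wild type and 2.497 FPKM in the mutant. Both mutant libraries lay below both wild-type libraries, 9.02-fold at E12.0 and 12.1-fold at E12.5. Over both stages Foxd1 fell by 2.97 on the log2 scale (SE 0.16, limma, adjusted p = 0.0305). At E17.5 Foxd1 stood at 3.90 and 1.96 FPKM in the wild type and 0.396 and 0.230 FPKM in the mutant, again without overlap. Whether the fragments still assigned to Foxd1 in the mutant came from outside the removed part was not tested. Because RNA came from bulk tissue, fewer cells of a type and less RNA per cell cannot be told apart, here and for the genes that follow.

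In the test over both stages 4 of 11952 genes (0.0335%) passed an adjusted p of 0.05 by limma, 2 higher (0.0167%) and 2 lower (0.0167%), while 168 (1.41%) had an unadjusted p under 0.05. Besides Foxd1 these were a histone gene and 2 small RNAs. The small RNAs reached the level for testing only through the genotype in which they were high, and the histone gene was near that level in the wild type. Hist1h2ba, which encodes a testis-enriched variant of histone H2B, stood at 1.01 and 1.74 FPKM in the wild-type libraries of E12.0 and E12.5. In the mutant it stood at 176 and 204 FPKM, so that the genotypes did not overlap and differed 173-fold and 117-fold. The rise was 6.34 on the log2 scale (SE 0.13, limma, adjusted p = 0.000984). The call of Hist1h2ba was lost in 2 of 15 alternative fits, those that left out an E12.0 library. Both are the same contrast, because the E12.0 library left alone adds nothing and only the E12.5 pair remains (6.23 log2 units in both). The spread in these fits comes from the E17.5 replicates. The call of Foxd1 was lost in 7 of 15, among them the same fits (-3.16 log2 units in both). Apart from those, its adjusted p was at most 0.104 (limma, with quantile normalization). In every one of these fits the direction of both genes was kept.

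Snord34 reached 4665 FPKM in the E12.0 wild type and 766 FPKM in the E12.5 wild type, while each mutant library listed it at 0. Snord34 lies in an intron of Rpl13a, which encodes a ribosomal protein and stood at 411 and 1255 FPKM and then at 771 and 722 FPKM, with no such split by genotype. Gm12238, a predicted small nucleolar RNA in RefSeq, had 33.8 and 19.3 FPKM in the mutants of E12.0 and E12.5 and was listed at 0 in each wild type. Each of these RNAs reached the level for testing only through the genotype in which it was high. The fitted size of each against 0 is set by the pseudocount, so no fold or p is given for them here. The calls of Snord34 and Gm12238 were lost in 5 and 4 of 14 alternative fits. Values of such short RNAs in FPKM tables are large and uneven: they took from 14.7% to 24.5% of all FPKM in the 4 libraries, and both Snord34 and Gm12238 were listed at 0 in all 4 libraries of E17.5.

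Hist1h2ba was measured inside the Hist1 cluster, the largest array of replication-dependent histone genes, whose near-identical copies can share reads. Of its 52 genes, 49 were tested, 22 were higher in the mutant at both stages and 14 were lower at both, with medians of 0.40 at E12.0 and 0.04 at E12.5. Over all tested genes 25.9% were higher and 21.8% lower at both stages, and the medians were 0.02 and 0.00. None but Hist1h2ba passed the adjusted threshold. Summed over the cluster, FPKM was 22532 and 26993 in the E12.0 wild type and mutant, and at E12.5 it was 25560 and 25455. The members differed in both directions while their sum at E12.5 was nearly level.

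Among the H2B genes of the cluster, Hist1h2bf stood at 166 and 51.3 FPKM and then at 189 and 113 FPKM. Hist1h2bb, another H2B gene, stood at 716 and 487 FPKM and then at 784 and 479 FPKM. In both genes the mutant libraries lay below the wild-type libraries. Hist1h2bj, also an H2B gene, lay the other way, at 226 and 443 FPKM and then at 249 and 353 FPKM. The H3 gene Hist1h3f was lower in the mutant at both stages, by 0.55 and 0.93 log2 units, and the H4 gene Hist1h4c higher, by 1.19 and 0.54. At E17.5 Hist1h2bf was at 19.3 and 21.8 FPKM in the wild type and 21.5 and 27.1 FPKM in the mutant, and the split seen earlier was absent.

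**Figure D1:**
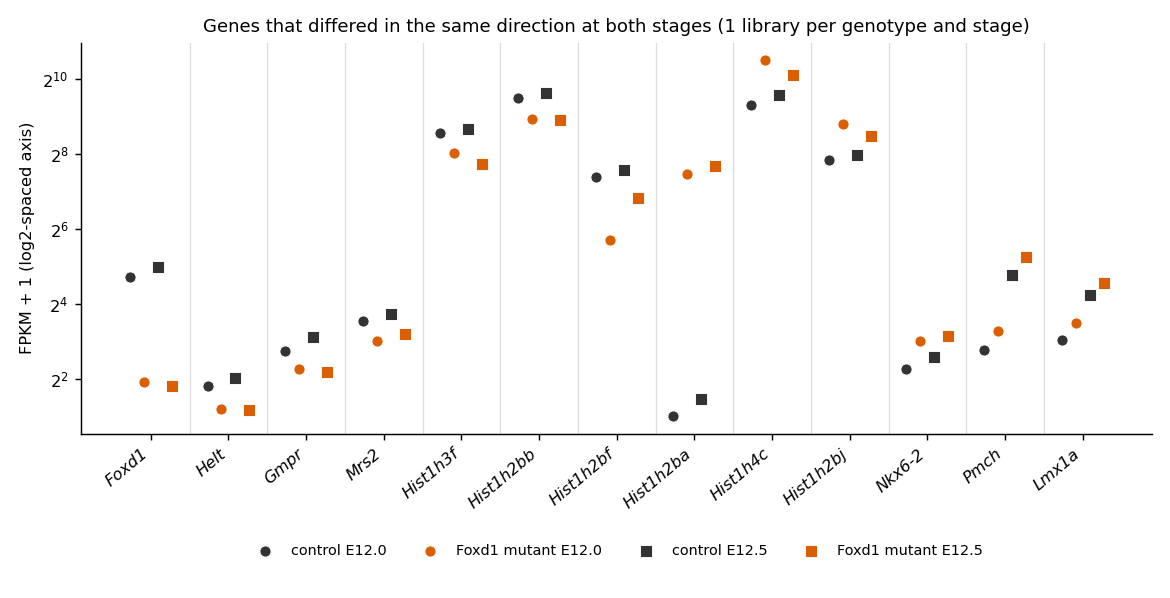
FPKM + 1 of 13 genes in each of the 4 libraries, on a log2-spaced axis. Black marks are wild-type (control) and orange marks mutant libraries, circles E12.0 and squares E12.5. For every gene but Pmch and Lmx1a both orange marks lie on the same side of both black marks.

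Foxd1 and the Hist1 cluster both lie on chromosome 13, by the RefSeq annotation (GRCm38.p6). On that chromosome 22 of 465 tested genes (4.73%) differed by 0.3 log2 units or more in the same direction at both stages, against 130 of 11383 (1.14%) on the other chromosomes, a description with no test, with the size of 0.3 chosen after the data were seen. Over all 11952 genes the shares were 0.577% higher and 0.736% lower. Leaving out clustered histone genes gave 12 of 416 (2.88%) on chromosome 13, the targeted gene Foxd1 among them, against 1.13% elsewhere. By the E12.5 difference alone, 12.3% of genes on chromosome 13 and 5.62% of the others passed 0.3, and by the E12.0 difference alone 35.7% and 31.5%. Without clustered histone genes the E12.5 shares were 8.65% and 5.6%. Each of the other autosomes and X had between 0.515% and 1.95%, so chromosome 13 had the highest share among these.

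Beyond the histone cluster on chromosome 13, 3 consecutive tested genes were lower in the mutant at both stages. Mrs2, a mitochondrial magnesium channel, stood at 10.7 and 7.01 FPKM and then at 12.1 and 8.17 FPKM. Gpld1, a phospholipase that cleaves membrane anchors, stood at 5.16 and 2.995 FPKM and then at 5.54 and 3.81 FPKM. Nrsn1, a neuronal membrane protein, stood at 6.84 and 3.20 FPKM and then at 10.04 and 7.90 FPKM, so that its genotypes overlapped across stages. Farther along the chromosome, Gmpr, an enzyme of guanine nucleotide recycling, was lower by 0.48 and 0.93 log2 units. Kif2a, a microtubule-depolymerising kinesin, was lower by 1.33 and 0.33. Ndufaf2, an assembly factor of respiratory complex I, was higher by 0.57 and 0.44. None of these passed the adjusted threshold (limma, adjusted p = 0.976 for each). Of the 22 genes, 20 had a value at E17.5, where 11 differed in the same direction and 3 did so by 0.3 or more, Foxd1 among them.

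**Figure D2:**
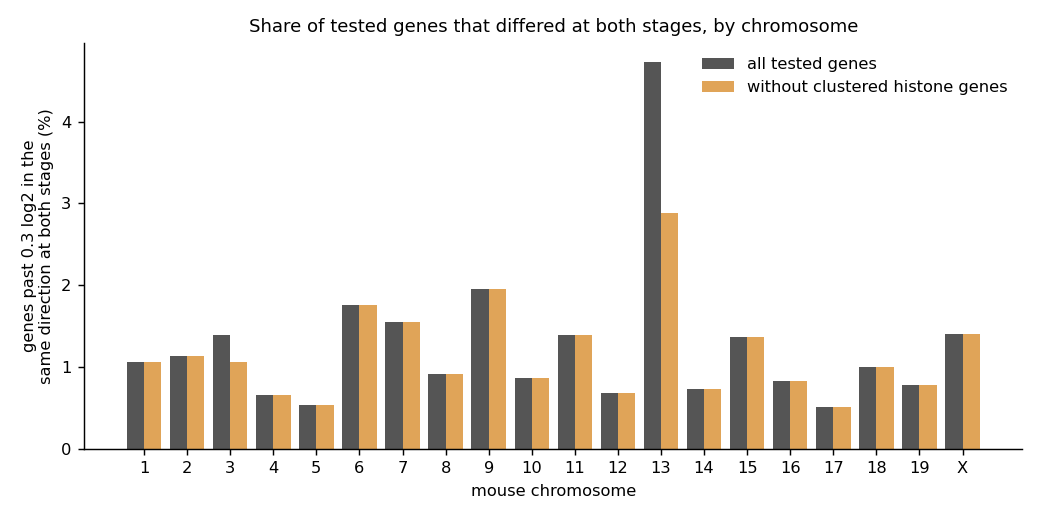
Share of tested genes, in percent, that differed between mutant and wild type by 0.3 log2 units or more in the same direction at E12.0 and E12.5, for each autosome and X. Grey bars are all tested genes and yellow bars leave out clustered histone genes; chromosome 13 stands at 4.73% and 2.88%.

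Most differences did not recur from E12.0 to E12.5. At E12.0, 86 genes (0.72%) were 2-fold or more higher and 219 (1.83%) lower in the mutant. At E12.5 the counts were 20 (0.167%) and 64 (0.535%). Small RNAs made up 12 of the 20 and 49 of the 64 at E12.5, against 31 of the 86 and 9 of the 219 at E12.0. At both stages 6 genes (0.0502%) were 2-fold higher and 5 (0.0418%) lower, and 8 of these 11 were small RNAs. The other 3 were Foxd1, Hist1h2ba and Lars2, a mitochondrial leucyl-tRNA synthetase. Lars2 was at 0 and 286 FPKM and then at 1825 and 5076 FPKM, so that it varied more with stage than with genotype. Of another 12 genes that were 2-fold different at both stages in opposite directions, 10 (0.0837%) were higher at E12.0 and 2 (0.0167%) lower at E12.0. Across the tested genes the E12.0 and E12.5 differences had a Pearson r of -0.06 and a Spearman rho of -0.06, a description across genes, which are not independent replicates.

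**Figure D3:**
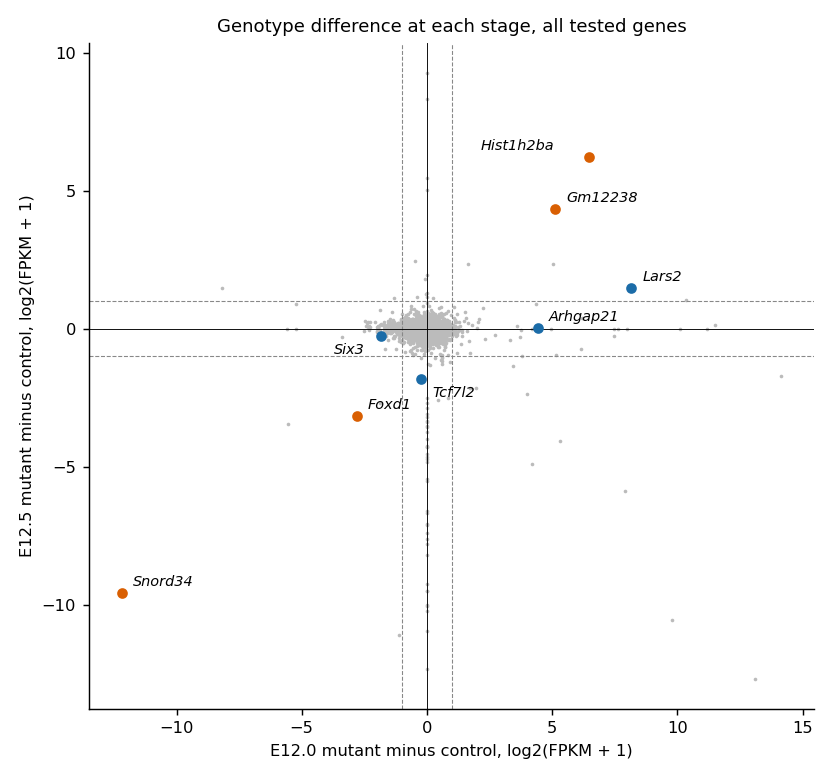
Genotype difference (mutant minus wild type, log2(FPKM + 1)) at E12.0 on the x axis and at E12.5 on the y axis for the 11952 tested genes, each a grey point. Orange marks are the 4 genes past the adjusted threshold, blue marks other named genes, and dashed lines 2-fold; few points lie beyond the lines in the lower left and upper right.

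The libraries stood apart to unequal degrees, and 1 library often set a single-stage difference. After centring each library on its median, the E12.0 wild type lay 1 log2 unit or more above each of the other 3 libraries in 158 genes and below them in 44. The other libraries did so in at most 41 genes above and 6 below. Of the 219 genes lower at E12.0, the wild-type library stood apart in 154 and the mutant in 2. Of the 64 lower at E12.5, the wild-type library of that stage stood apart in 41 and the mutant in 6. The lowest FPKM above 0, a rough guide to depth, was 0.0165 in the E12.0 wild type and between 0.00177 and 0.00481 in the others, and 93 tested genes were listed at 0 there against 14 to 56 elsewhere. The E12.0 difference also moved with transcript length, from a median of 0.14 in the shortest of 5 equal groups of genes to -0.15 in the longest, against -0.02 and 0.03 at E12.5. The part of depth and length in the E12.0 differences was not tested.

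In the genes with the largest E12.0 decreases named here, the wild-type library of that stage was the odd one out. Atn1, a transcriptional corepressor, stood at 17.9 FPKM there and at 2.44, 2.51 and 3.27 FPKM in the E12.0 mutant and the E12.5 wild type and mutant. Kdm6b, a histone H3 demethylase, stood at 32.0 FPKM and then at 5.35, 5.75 and 6.77 FPKM. The neuronal splicing regulator Nova2 stood at 23.0 FPKM and then at 3.40, 4.72 and 5.21 FPKM. Rnf165, a neuronal ubiquitin ligase, and Pcbp2, an RNA-binding protein, had the same pattern, with E12.0 differences of -2.36 and -2.30 and E12.5 differences of 0.05 and 0.12. In the other direction, Arhgap21 (a GTPase-activating protein) and Zc3h7a (a zinc finger protein) were listed at 0 in the E12.0 wild type. In the other 3 libraries Arhgap21 stood between 20.6 and 24.9 FPKM and Zc3h7a between 12.6 and 14.6 FPKM. Snhg9, a host gene of a small nucleolar RNA, was listed at 0 there and at 12.8, 25.1 and 12.1 FPKM. Slc7a11, the cystine transporter, stood at 0.831 FPKM there and at 19.1, 19.5 and 7.02 FPKM in the E12.0 mutant and the E12.5 wild type and mutant.

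Regulators of the hypothalamic territories were read from lists of known genes, by the number of members in each direction, whatever the size of the difference. Of all tested genes, 52.4% were higher and 47.2% lower in the mutant at E12.0, 51.4% were higher and 48.5% lower at E12.5, and 25.9% were higher and 21.8% lower at both stages. The counts of each list stand against these shares. No member but Foxd1 and Hist1h2ba passed the adjusted threshold in any list. Of 8 tested anterior and suprachiasmatic regulators, 6 were lower at E12.0 and 4 at E12.5, with medians of -0.73 and -0.01. Six3, a homeobox gene of the rostral forebrain, stood at 14.2 and 3.27 FPKM and then at 4.68 and 3.73 FPKM. Lhx1, a LIM-homeobox gene needed in the suprachiasmatic nucleus, stood at 23.4 and 10.2 FPKM and then at 13.01 and 10.9 FPKM. In both genes, and in Zfhx3 (20.6 FPKM there, against 6.25 to 9.26 FPKM in the others), the E12.0 wild type stood apart. Six6, a relative of Six3, was higher in the mutant at both stages, by 0.35 and 0.14, and the optic and hypothalamic homeobox gene Vax1 by 0.12 and 0.15.

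The 12 tested basal and tuberal regulators were all lower in the mutant at E12.0 (47.2% of all genes) and 9 of them were higher at E12.5 (51.4% of all genes), with medians of -0.37 and 0.23. Nkx2-1, the homeobox gene that defines the basal hypothalamus, stood at 39.8 and 13.1 FPKM and then at 24.2 and 29.96 FPKM. Rax, a homeobox gene of tuberal progenitors, stood at 11.3 and 7.39 FPKM and then at 14.6 and 17.8 FPKM. For both, the direction at E12.5 was opposite to that at E12.0. Nkx2-2, Lhx2 and Hmx2 were lower at both stages, and Nkx2-2 differed most, from 21.9 to 14.6 FPKM at E12.0 and from 19.5 to 15.8 FPKM at E12.5.

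Among paraventricular and supraoptic genes, Otp and Sim1, the regulators that specify neurosecretory neurons, were lower at E12.0 and higher at E12.5. Otp stood at 71.2 and 34.7 FPKM and then at 39.2 and 46.8 FPKM. The peptide genes Avp, Oxt and Crh were listed at 0 or under 0.1 FPKM in all 4 libraries and were not tested. Genes of a pair of peptides that act on pituitary hormone release were expressed: Trh (thyrotropin-releasing hormone) stood at 3.06 and 3.82 FPKM and then at 6.23 and 14.7 FPKM, and Sst (somatostatin) at 25.9 and 23.9 FPKM and then at 69.6 and 36.6 FPKM. Trh was higher and Sst lower in the mutant at both stages, chiefly at E12.5, and 4 of the 8 tested members were higher at that stage.

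Of the 8 tested ventromedial genes, 7 were lower in the mutant at E12.5 (median -0.16) and 3 at E12.0 (median 0.12). Nr5a1, the nuclear receptor that defines the nucleus, stood at 3.06 and 2.45 FPKM and then at 8.08 and 7.76 FPKM, and differed little at either stage. Sox14, a transcription factor of the Sox family, stood at 4.70 and 3.25 FPKM and then at 11.8 and 9.35 FPKM.

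Arcuate genes were lower at both stages in 4 of 8 tested members (21.8% of all genes), Pomc, Bsx, Prdm12 and Isl1, with medians of -0.23 and -0.36. Ghrh, the growth hormone-releasing hormone gene, was the 1 member higher at both, by 0.83 and 0.13. Pomc, the precursor of melanocortin peptides, stood at 7.44 and 6.25 FPKM and then at 34.6 and 16.2 FPKM, so that the E12.5 wild type stood above the others. Isl1, a LIM-homeobox gene needed for Pomc neurons, stood at 40.9 and 34.3 FPKM and then at 84.1 and 69.4 FPKM. Prdm12, another regulator of Pomc expression, stood at 6.79 and 5.45 FPKM and then at 7.48 and 5.20 FPKM. Bsx, a homeobox gene of arcuate neurons, differed at E12.0 alone, at 6.65 and 1.75 FPKM against 5.25 and 5.06 FPKM at E12.5. The peptide genes Npy and Cartpt were higher at E12.0, by 0.60 and 0.58, and lower at E12.5, by 1.01 and 0.93.

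Pmch, the precursor of melanin-concentrating hormone in lateral hypothalamic neurons, stood at 5.81 and 8.71 FPKM and then at 26.2 and 37.1 FPKM. Its differences of 0.51 and 0.49 were of nearly equal size, and at E17.5 it stood at 54.0 and 55.8 FPKM in the wild type and 65.1 and 56.2 FPKM in the mutant. In the test over both stages Pmch did not pass (limma, adjusted p = 0.976).

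Of 14 mammillary and supramammillary regulators, 9 were lower at E12.0 and 12 higher at E12.5, and 4 were higher at both stages, among them Lmx1a, Irx3 and Irx5. Lmx1a, a LIM-homeobox gene of the supramammillary field, stood at 7.19 and 10.2 FPKM and then at 17.8 and 22.3 FPKM. Foxb1, the forkhead gene that marks the mammillary body, stood at 6.21 and 4.31 FPKM and then at 10.96 and 12.003 FPKM, with no common direction. Of the 4 tested preoptic genes, 2 were higher and 2 lower in the mutant at E12.0, and all 4 were higher at E12.5. Lhx6 and Etv1 were lower at E12.0, by 0.55 and 0.05, and higher at E12.5, by 0.30 and 0.03. Nkx6-2, a homeobox repressor, stood at 3.74 and 7.06 FPKM and then at 4.94 and 7.84 FPKM. Both of its mutant libraries lay above both wild-type libraries. The LIM-homeobox gene Lhx8 was low, at 0.161 and 1.54 FPKM and then at 1.68 and 2.16 FPKM.

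Markers of neighbouring regions varied between the libraries as well. The 12 thalamic and prethalamic genes summed to 201 and 181 FPKM and then to 227 and 170 FPKM at E12.5, and 11 of them were lower in the mutant at E12.5 (median -0.39). Tcf7l2, a Wnt effector high in thalamus and habenula, stood at 17.6 and 14.9 FPKM and then at 19.6 and 4.90 FPKM. Gbx2, which marks thalamic neurons, stood at 0.954 and 2.48 FPKM and then at 8.20 and 0.630 FPKM. Olig3, a gene of thalamic progenitors, stood at 4.29 and 9.12 FPKM and then at 7.74 and 2.80 FPKM. For all 3, the E12.5 mutant had the lowest level, and for Gbx2 and Olig3 the E12.0 difference went the other way. Lhx9, a LIM-homeobox gene of both the thalamus and the lateral hypothalamus, moved with them, at 8.42 and 9.35 FPKM and then at 9.99 and 3.37 FPKM. The prethalamic gene Olig2 differed by 0.02 and -0.03 log2 units.

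Of the 10 tested telencephalic markers, 8 were lower in the mutant at E12.0 (median -0.46) and 6 were higher at E12.5 (median 0.04). Tbr1, a marker of early telencephalic and other forebrain neurons, stood at 20.1 and 9.30 FPKM and then at 6.24 and 4.20 FPKM. All 11 listed telencephalic genes summed to 101, 64.0, 53.4 and 60.6 FPKM in the same order. The part of neighbouring tissue in the differences of hypothalamic genes was not tested.

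**Figure D4:**
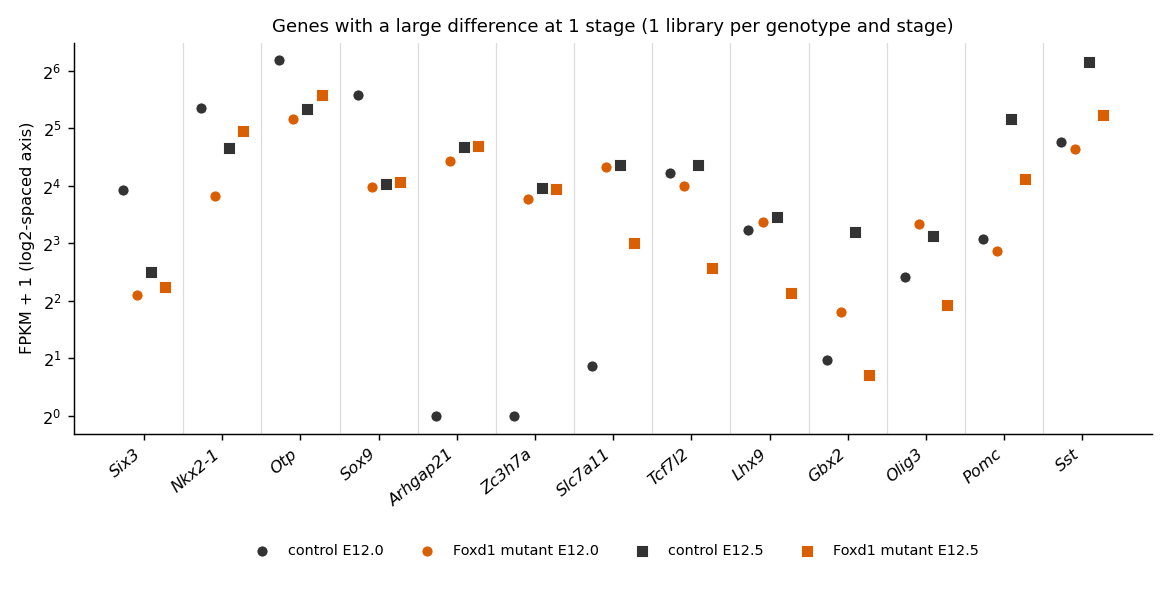
FPKM + 1 of 13 genes in each of the 4 libraries, on a log2-spaced axis, with symbols as in the plot of genes that differed at both stages. For Six3, Sox9, Arhgap21 and Zc3h7a the E12.0 wild type stands apart, and for Tcf7l2 and Lhx9 the E12.5 mutant.

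Genes of postmitotic neurons were lower in the mutant at both stages in 13 of 19 members (21.8% of all genes) and higher at both in none (25.9% of all genes), with medians of -0.29 and -0.11. Dcx, a microtubule protein of migrating neurons, stood at 82.9 and 39.8 FPKM and then at 62.7 and 61.0 FPKM. Ina, a neurofilament protein, stood at 131 and 86.2 FPKM and then at 177 and 166 FPKM. Tubb3, neuronal tubulin, was higher at E12.0 (648 and 771 FPKM) and lower at E12.5 (1280 and 1141 FPKM). At E12.5, where the libraries differed less, 17 of the 19 were lower (48.5% of all genes), by 0.39 log2 units at most.

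GABAergic regulators and enzymes were lower at both stages in 9 of 15 members (21.8% of all genes) and higher at both in none (25.9% of all genes), with medians of -0.61 and -0.13. Meis2, a homeobox cofactor, stood at 27.9 and 17.49 FPKM and then at 32.2 and 25.6 FPKM. Gad1, which makes GABA, stood at 10.1 and 8.09 FPKM and then at 14.99 and 12.2 FPKM, and Gad2, its paralog, at 28.6 and 18.5 FPKM and then at 23.6 and 23.5 FPKM. Dlx1 and Dlx2, homeobox genes of GABAergic progenitors, were lower at E12.0 by 0.15 and 0.85 and higher at E12.5 by 0.06 and 0.19. Helt, a basic helix-loop-helix factor that promotes GABAergic identity in the midbrain, was not on the list but was lower in the mutant at both stages, at 2.47 and 1.30 FPKM and then at 3.08 and 1.23 FPKM. It was chosen after its values were seen.

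Cell cycle genes were higher in the mutant at both stages in 22 of 27 members (25.9% of all genes) and lower at both in none (21.8% of all genes), with medians of 0.14 and 0.20. All 27 were higher at E12.5 (51.4% of all genes), by 0.06 to 0.40 log2 units. Ccnb1, cyclin B, stood at 57.0 and 70.8 FPKM and then at 52.3 and 60.6 FPKM. Mcm2, a replication licensing factor, stood at 37.3 and 45.7 FPKM and then at 36.3 and 41.9 FPKM, and the mitotic kinase Aurka at 14.9 and 18.6 FPKM and then at 15.1 and 18.1 FPKM. In these 3 genes both mutant libraries lay above both wild-type libraries. The other 5 members, Ccnd2, Mki67, E2f1, Plk1 and Ccnd1, were lower at E12.0, and Ccnd2, a cyclin D gene, differed most, at 84.1 and 44.3 FPKM at E12.0 against 42.3 and 56.0 FPKM at E12.5.

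Neural progenitor genes showed no common direction, with 3 of 14 higher and 2 lower at both stages. Sox2, a progenitor transcription factor, stood at 126 and 118 FPKM and then at 153 and 164 FPKM. Sox9, a progenitor and glial regulator, stood at 46.4 FPKM in the E12.0 wild type and between 14.8 and 15.8 FPKM in the other 3 libraries. In the Notch pathway and the proneural genes it precedes, 4 of 22 members were higher and 5 lower at both stages. Hes5, a Notch target that keeps progenitors undifferentiated, stood at 112 and 164 FPKM and then at 160 and 176 FPKM. The ligand genes Dll1 and Dll3 were higher at both stages, by 0.18 and 0.08 and by 0.39 and 0.14, and the receptor Notch1 was lower by 0.68 and then higher by 0.24.

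**Figure D5:**
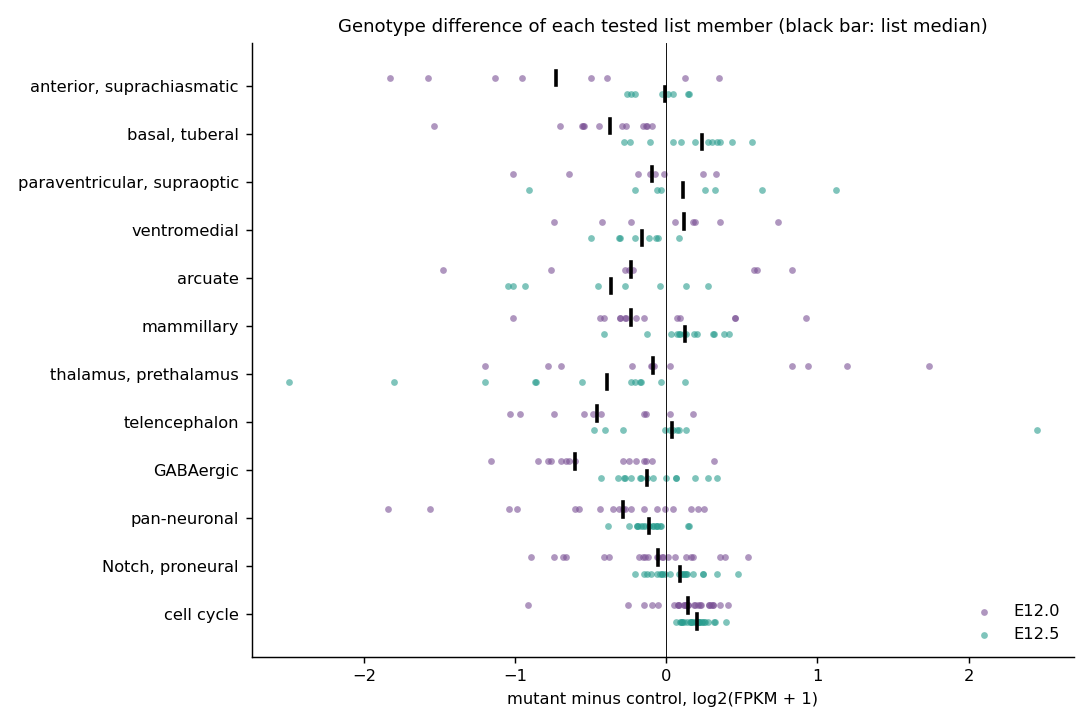
Genotype difference (mutant minus wild type, log2(FPKM + 1)) of every tested member of 12 gene lists, at E12.0 in purple and at E12.5 in green, with the list median as a black bar. The median of the cell cycle genes lies to the right of 0 at both stages (0.14 and 0.20), with 5 of 27 genes left of 0 at E12.0, while the median of the basal and tuberal list lies left at E12.0 (-0.37) and right at E12.5 (0.23).

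Among signalling genes, the ligand Shh, which patterns the ventral forebrain, stood at 29.95 and 24.4 FPKM and then at 27.1 and 37.0 FPKM. Its target Gli1 was higher at both stages, at 4.36 and 5.49 FPKM and then at 2.96 and 3.87 FPKM, and the transducer Smo by 0.22 at each. The target and receptor Ptch1 was lower by 0.57 and then higher by 0.13, and the target Hhip, a ligand-binding inhibitor, was lower by 0.35 and then higher by 0.08. These targets differed in direction from Gli1 at E12.0 and shared its direction at E12.5. Of the 12 tested pathway genes, 2 were higher and 3 lower at both stages. Of 25 tested Wnt genes, 4 were higher and 5 lower at both. At E12.5 the Wnt agonists Rspo1 and Rspo3, which enhance reception of the ligand, stood at 0.0889 and 1.93 FPKM in the mutant against 1.29 and 5.62 FPKM in the wild type, after the opposite direction at E12.0. The general Wnt target Axin2 was lower by 0.12 and 0.20. Of 13 tested BMP genes, 4 were higher at both stages, the antagonist Nog, the target Id3, the inhibitor Smad6 and the receptor Bmpr1a, and none was lower at both. Of 10 tested FGF genes, 3 were higher and 1 lower at both, and the hypothalamic ligand gene Fgf10 was under 0.3 FPKM in every library.

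Of 15 tested forkhead genes, 12 were lower at E12.0 (median -0.31) and 7 at E12.5 (median 0.01). At both stages 4 were lower, Foxd1, Foxp1, Foxp2 and Foxo3, and none was higher. Besides Foxd1, the differences of these were 0.27 log2 units or less, and none passed the adjusted threshold. Foxd2, of the same Foxd subfamily, stood at 2.69 and 2.39 FPKM and then at 2.78 and 4.06 FPKM. Foxd3 and Foxd4 were under 0.3 FPKM or listed at 0.

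Markers of cells from outside the brain ranged from near absent to abundant. Red blood cell genes summed to 2157 and 2102 FPKM and then to 1976 and 1809 FPKM, most of it from the embryonic globin gene Hbb-y, at 1350.3 and 1424 FPKM and then at 1656 and 1455 FPKM. Of the 6 tested, 2 were higher and 1 lower at both stages. None of 12 surface epithelium genes reached the level for testing, and they summed to between 1.41 and 4.01 FPKM. Of 13 pituitary lineage genes, 2 were tested, both also hypothalamic and Pomc among them, and Pou1f1, Hesx1, Gh and Prl were listed at 0 in all libraries. The 12 endothelial genes summed to 90.0 and 80.5 FPKM and then to 123 and 115 FPKM, with 6 lower and 1 higher at both stages. The cartilage collagen gene Col2a1, which neural tissue also expresses, stood at 10.7 and 17.8 FPKM and then at 17.2 and 25.6 FPKM. Sex-linked genes moved with genotype. On the Y chromosome Ddx3y, Eif2s3y, Kdm5d and Uty were all higher in the mutant at both stages, and Xist, transcribed from the inactive X, was lower, at 22.9 and 6.80 FPKM and then at 9.96 and 8.11 FPKM. The part of sex in the other differences was not tested.

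The genotype difference at E17.5 was set against that at E12 in a fit over all 8 libraries. Of 12519 genes, 4 (0.032%) passed an adjusted p of 0.05 by limma, and 494 (3.95%) had an unadjusted p under 0.05. Hist1h2ba, which differed at E12 without overlap, stood at 21.2 and 13.6 FPKM in the wild type and 18.1 and 7.69 FPKM in the mutant at E17.5, and its difference was 6.82 log2 units smaller there (SE 0.54, limma, adjusted p = 0.0466). This call was lost in 14 of 19 alternative fits (adjusted p up to 0.471), among them those without any 1 of the E17.5 or E12.0 libraries, and in 11 of the 19 the count of 4 fell to 0 or 1. The other 3 were Snord34, Gm12238 and Oxt, each of which reached the level for testing only through the libraries in which it was high. Oxt, the oxytocin precursor, was listed at 0 in all 4 early libraries and stood at 8.10 and 7.72 FPKM in the wild type and 1.39 and 1.43 FPKM in the mutant at E17.5. Its difference between the ages is that at E17.5 alone, and the call was lost in 9 of 18 alternative fits. The E12 and E17.5 tables were deposited separately, so these levels were compared within a stage before the differences were compared. For Foxd1 the difference between the stages did not pass (limma, adjusted p = 0.749).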

How the data were processed

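RNA of embryonic mouse hypothalamus was measured in 4 libraries of E12.0 and E12.5, and 4 of E17.5 for the comparison between ages. Values were deposited by the authors as FPKM per gene. Per the submitters' processing notes, TopHat, Cufflinks and mouse build mm9 were used, with versions and settings not given in the sources used here. Per the labels, libraries were paired-end with 100 cycles. Depth in reads is unknown, because FPKM without counts allowed no count model and gave no interval or floor.

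Rows of a symbol were summed and log2(FPKM + 1) was taken. Genes with a mean of 1 FPKM or more were tested with limma 3.58.1 (R 4.3.3; two-sided; trend of variance on level; stage as a block), with p adjusted by Benjamini and Hochberg over all tested genes at a threshold of 0.05. The test was checked on simulated data with normal noise of equal size in every gene and library, which does not cover an outlying library or values of 0. Single stages were not tested and were counted at 1 log2 unit. In the early table, 8 rows without a gene name (0.0285% to 0.036% of FPKM) were left out.

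The comparisons, gene lists and members were chosen with earlier results of these data known. Named were Foxd1, genes past the adjusted threshold, genes 2-fold different at both stages (up to 12 per direction), 6 per direction at a single stage with a mean of 5 FPKM or more, and up to 5 members per list with the largest difference in the same direction at both stages, beside list-defining genes. Predicted, small RNA and sex-linked genes were skipped by these rules unless past the threshold. The sex-linked genes Ddx3y, Eif2s3y, Kdm5d, Uty and Xist were named outside these rules, and none of them passed the threshold. Other genes were named after their values were seen, among them the chromosome 13 genes, genes lower or higher at both stages by less than 2-fold, and list members with opposite directions. Some list members are not reported by name here. Lists were described by counts and medians, with no list test. Alternatives changed the pseudocount (0.1 or 5), filter, normalization, rows joined, variance prior, blocks and libraries. Chromosomes came from RefSeq (GRCm38.p6), where 11848 of 11952 tested genes matched, and lengths from GENCODE M21 (97.1% matched). Python 3.11.15, pandas 2.3.3, numpy 2.4.6 and matplotlib 3.10.9 were used.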

Additional observations from a re-analysis of the deposited data

Results flagged for a closer look

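In the fit over 8 libraries, 4 genes passed the adjusted threshold for a change of the genotype difference between E17.5 and E12 (limma). The call of Hist1h2ba was lost in 14 of 19 alternative fits and that of Oxt in 9 of 18. The E17.5 difference minus the E12 difference was -6.82 log2 units for Hist1h2ba, -4.73 for Gm12238, 10.88 for Snord34 and -1.89 for Oxt. Snord34 and Gm12238 were listed at 0 in 1 genotype at E12 and in all libraries of E17.5, and Oxt at 0 in all E12 libraries. The sizes of Snord34, Gm12238 and Oxt are therefore set by the pseudocount or by 1 age alone. Each of them reached the level for testing only through the libraries in which it was high, so no conclusion is drawn from their calls.

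The genes below had opposite directions at E12.0 and E12.5, so that the mutant was higher at the first stage and lower at the second or the reverse. With 1 library per genotype at each stage this difference was not tested. The E12.5 difference minus the E12.0 difference was 2.74 log2 units for Atn1, 2.58 for Kdm6b, 2.57 for Nova2, 2.42 for Pcbp2 and 2.41 for Rnf165, in all of which the E12.0 wild type was the high library. It was -4.81 for Slc7a11, -4.79 for Snhg9 and -3.79 for Zc3h7a, in which the E12.0 wild type was the low library. For the thalamic gene Olig3 it was -2.14, and for Lhx9, in which the E12.5 mutant was the low library, it was -1.46. The RNA helicase gene Ddx5 stood at 345, 357 and 440 FPKM in 3 libraries and at 1055 FPKM in the E12.5 wild type, and the value was -1.31. For the histone genes Hist1h2bl and Hist2h3b it was 2.45 and 1.57.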

How the results depend on the processing

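The count of genes past the adjusted threshold over both stages (4) was 1 with a pseudocount of 5, with no filter, with quantile normalization or with no trend, 2 with small RNA genes left out and the rest rescaled, and 78 with no stage block. Leaving out 1 library in turn, with its stage's spread taken from the other groups, gave 49 to 2414. These fits include the E17.5 libraries, and their spread comes from the E17.5 replicates alone. The early library left alone at its stage adds nothing, and the E12 difference is that of the 1 remaining pair. These counts therefore have no replicate check at E12, and no conclusion is drawn from them. The high counts without an E12.5 library rest on the E12.0 pair. The count for E17.5 minus E12 (4) was 1 with a pseudocount of 0.1 or 5 or with quantile normalization, 2 with a robust prior, and 0 with no filter, a mean of 5 FPKM or small RNA genes left out (877, 340 and 649 at unadjusted p). Left-out libraries gave 0 to 1465, and the cause was not tested. The count past 2-fold at E12.0 (305) was 548 with a pseudocount of 0.1, 137 with 5 and 638 with small RNA genes left out, where rescaling to a fixed sum raises all values. The counts at E12.5 (84) and at both stages (11) stayed within 1.5 times. With small RNA genes left out and the rest rescaled they were 58 and 8. Small RNAs had made up 49 of the 64 lower and 12 of the 20 higher genes at E12.5, and 8 of the 11. Most genes counted in that setting are therefore not those of the main counts, and the similar totals do not mean that the same genes were kept. Vim reversed under quantile normalization (-0.035), near 0.

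Replicate numbers are shared at E17.5 alone, where same-numbered deviations correlated at 0.028 over genes. With the number as a replicate block, the count for E17.5 minus E12 was 1. No paired analysis was possible because each early group has a single library, beyond the pairing by stage that the fit already holds.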
